A study of Homo sapiens with 6 samples.

Results

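Nucleotide synthesis and one-carbon metabolism were examined through 38 genes, which encode the enzymes of de novo purine and pyrimidine synthesis, phosphoribosyl pyrophosphate (PRPP) supply, deoxynucleotide supply, serine synthesis, folate one-carbon transfer, the methionine cycle and the pentose phosphate pathway. The genes were chosen by name, and every row of the count table whose symbol was on the list was taken. All 38 had a row among the 61155 symbols, 37 under the listed symbol and ADSS2 under its older symbol ADSS. By the methods, the samples were undifferentiated H7 human embryonic stem cells (hESCs), an established line grown without feeders. The labels of all libraries instead give a time of week 5 and call the genotype a knockdown, and the methods were followed here. There were 3 wild-type (WT) libraries and 3 libraries of S6K1-/- cells, in which CRISPR/Cas9 with guides to exons 9 and 11 had deleted a stretch of RPS6KB1, the gene of the ribosomal protein S6 kinase S6K1. The S6K1-/- cells sequenced were a single clone (clone #1), so that genotype and clone cannot be told apart. The sources used here do not say whether replicates came from separate cultures, and the p-values measure only the spread between these libraries, which may be technical.

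Purine rings are built on ribose 5-phosphate from the pentose phosphate pathway, and pyrimidine rings are built first and joined to the same activated sugar, PRPP. Serine feeds 1-carbon units into the folate cycle, which supplies carbons for the purine ring and for the methylation of deoxyuridylate to thymidylate. Dividing stem cells draw on all of these routes for RNA and DNA. S6K1 acts downstream of mTORC1, a growth-controlling kinase complex for which links to both purine and pyrimidine synthesis are known, and the bulk comparison addressed which transcripts differ in its absence.

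Between 21896698 and 24473013 counts were obtained per library, and the members took from 0.699% to 0.721% of a library. The targeted gene RPS6KB1 was counted 831, 791 and 777 times in WT and 464, 464 and 438 times in S6K1-/- hESCs (log2 fold change -0.75 ± 0.06, SE, n = 3 per group; adjusted p = 2.52e-07 in edgeR's quasi-likelihood test), whereas its paralog RPS6KB2 did not pass the test (0.07, adjusted p = 0.540). Over all 19521 genes tested, 496 were lower (2.54%) and 278 higher (1.42%) in S6K1-/- hESCs at the study's threshold of an adjusted p under 0.001. All 11 pluripotent cell markers on a fixed list were tested and detected, with POU5F1 at 181 ± 3.71 CPM in WT and 177 ± 16.5 CPM in S6K1-/- hESCs (CPM, counts scaled to a TMM-adjusted library of 1e6 counts, mean ± SD, n = 3). The summed level of these markers was 7653 to 7826 CPM in WT and 7163 to 7259 CPM in S6K1-/- hESCs, a mean difference of -7.01%. At an adjusted p under 0.05 in edgeR's test, 3 of the 11 were lower and 1 higher (36.4%, beside 13.8% of all genes). All S6K1-/- libraries lay below all WT libraries for 6 markers and above them for 1 (63.6%, beside 30.7% of all genes). In bulk RNA, fewer cells of a type and less RNA per cell cannot be told apart.

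The transcripts of these pathways differed little between the genotypes. All 38 members passed the filter on low counts, and none was lower or higher at the threshold, beside 3.96% of all genes in either direction. The summed level of the members was 7084, 7132 and 7097 CPM in WT and 7096, 7047 and 7253 CPM in S6K1-/- hESCs, a difference of 0.389% between the means with overlapping groups. At an adjusted p under 0.05, 1 member was higher (PRPS2) and 1 lower (MTHFD1), or 5.26% of the members beside 13.8% of all genes (5.47% higher and 8.31% lower). At an unadjusted p under 0.05, edgeR's test gave 4 lower and 4 higher members (21.1%, beside 26.4% of all genes), and DESeq2's Wald test gave 2 lower and 5 higher, beside 10.2% lower and 9.27% higher of all genes. With DESeq2 no member was under an adjusted p of 0.001, beside 4.32% of all genes.

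Most members are abundant transcripts, and their errors were small. The median standard error was 0.042 over the members and 0.083 over all genes on the log2 scale. The median log2 fold change was 0.013 over the members and -0.0024 over all genes, and the median of its absolute size was 0.049 and 0.111. For 33 of the 38 members the whole 95% interval of the log2 fold change lay within 0.25 of 0 (86.8%, beside 39.4% of all genes), a band that was chosen after the values were seen. The 5 exceptions were ADSL, PRPS2, DCTPP1, MTHFD2L and ALDH1L1, of which only ALDH1L1 had an estimate outside the band, so that 97.4% of the members' estimates lay inside it, beside 74.9% of all genes. In 10 members the groups did not overlap, 5 lower and 5 higher (26.3% together), beside 30.7% of all genes (16.7% lower and 14.0% higher).

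**Figure D1:**
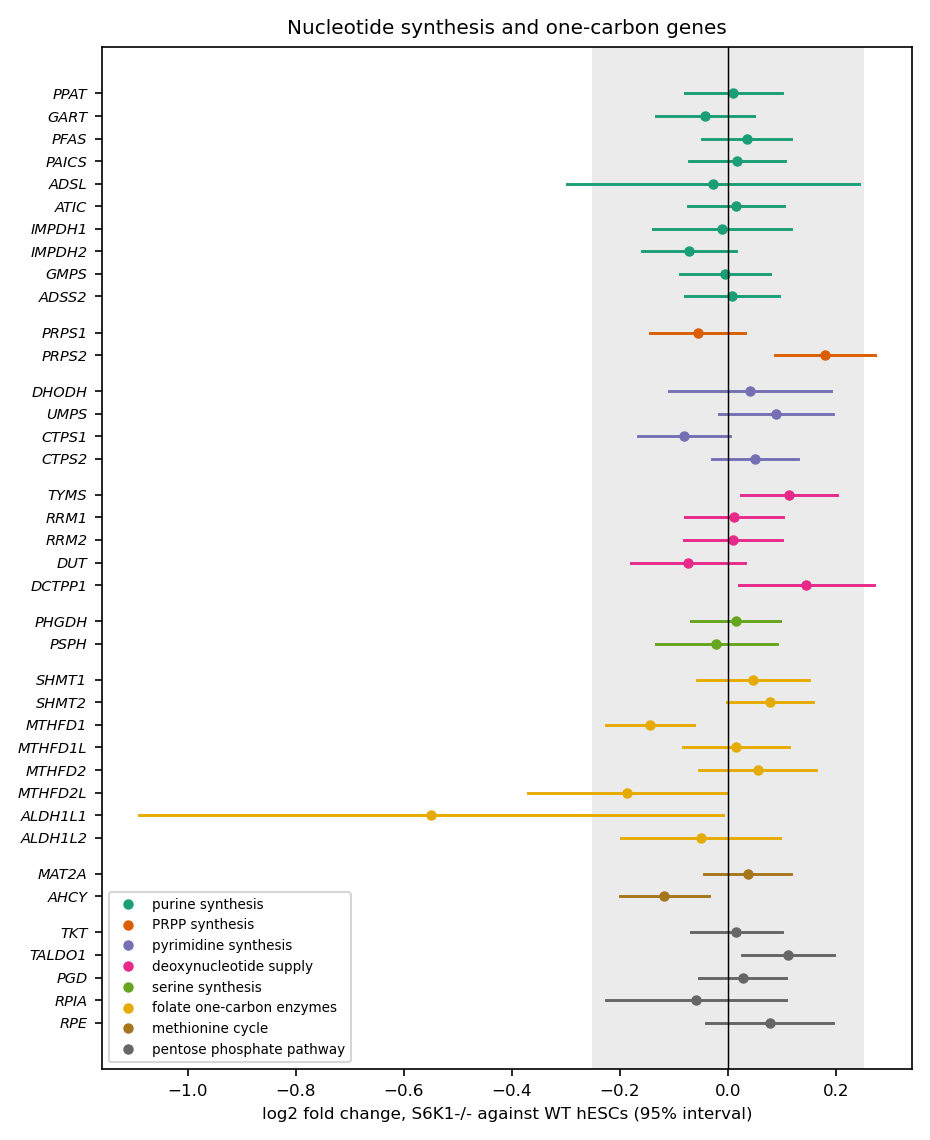
Log2 fold change of each of the 38 members, S6K1-/- against WT hESCs (x axis), with points for the estimate of edgeR's quasi-likelihood fit, lines for its 95% interval and colours for the role in the pathway. The grey band marks 0.25 on either side of 0, and the intervals of 33 members lie inside it, while ALDH1L1, at 12 to 26 counts per library, has the widest.

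Of the 10 purine synthesis enzymes, none passed the test, the log2 fold changes ran from -0.07 to 0.03, and the groups overlapped in every one. PPAT, the amidotransferase that commits PRPP to the purine route, was measured at 109, 107 and 112 CPM in WT and 113, 105 and 113 CPM in S6K1-/- hESCs. PAICS, which carries out the carboxylation and the next ligation of the ring, was measured at 687, 711 and 695 CPM against 706, 682 and 730 CPM. The log2 fold changes were 0.01 ± 0.04 for PPAT and 0.02 ± 0.04 for PAICS (SE), and the S6K1-/- libraries lay on both sides of the WT values for both genes.

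PPAT and PAICS are neighbours that point away from each other on chromosome 4. In GENCODE 44 on GRCh38, PPAT lies on the minus strand from 56393362 to 56435615 with 11 exons in its MANE Select transcript (the representative transcript on which the annotations agree), and PAICS lies on the plus strand from 56435741 to 56464578 with 9 exons. The RefSeq start sites of the transcripts used here are 645 bases apart. The 250 bases before the PPAT start site, on the minus strand at chr4:56435616-56435865 of GRCh38.p14 (RefSeq), are shown because they lie between the RefSeq start sites of both genes, although the first start of PAICS in GENCODE falls within them. Capitals mark the E-box CACGTG, the letters that MYC proteins among others bind.
PPAT: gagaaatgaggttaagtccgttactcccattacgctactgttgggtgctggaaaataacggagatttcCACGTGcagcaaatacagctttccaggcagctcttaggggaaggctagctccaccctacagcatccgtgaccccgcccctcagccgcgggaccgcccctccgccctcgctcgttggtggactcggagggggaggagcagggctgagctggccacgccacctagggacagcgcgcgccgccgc
The E-box begins at position -182, counted from the start site of PPAT. MYC was measured at 98.0 CPM in WT and 89.6 CPM in S6K1-/- hESCs and did not pass the test (log2 fold change -0.13 ± 0.04, adjusted p = 0.0679), nor did MYCN (-0.09 ± 0.06, adjusted p = 0.380). None of 6 listed regulators of these pathways passed it with edgeR or DESeq2, and 1 was lower at an unadjusted p under 0.05 in edgeR's test, beside 14.5% of all genes.

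The remaining enzymes on the way to inosine monophosphate were as close between the groups. GART, which carries 3 activities of the route in 1 protein, was measured at 172, 167 and 172 CPM in WT and 170, 157 and 171 CPM in S6K1-/- hESCs. PFAS, the formylglycinamidine synthase, was measured at 139, 137 and 133 CPM against 139, 142 and 137 CPM. ATIC, which closes the ring, was measured at 192, 195 and 196 CPM against 205, 187 and 197 CPM. Their log2 fold changes were -0.04, 0.03 and 0.01, with standard errors of 0.042, 0.039 and 0.042.

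ADSL, the lyase used in both the inosine and the adenosine branch, was counted only 86, 107 and 94 times in WT and 98, 91 and 81 times in S6K1-/- hESCs. It had a log2 fold change of -0.03 with a 95% interval from -0.30 to 0.24, so that a difference of less than about that size was not detectable with these counts. In GENCODE 44 the exons of its MANE Select transcript share 1336 bases (30.6%) with a readthrough gene on the same strand, ENSG00000284431, which joins ADSL to the neighbouring gene SGSM3. SGSM3 itself was counted 24 to 39 times per library. The part of this overlap in the low count of ADSL was not tested.

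In the branches to the finished nucleotides, IMPDH2, the main inosine monophosphate dehydrogenase on the guanine branch, was measured at 361, 383 and 368 CPM in WT and 348, 347 and 363 CPM in S6K1-/- hESCs. It had the largest difference of the 10 enzymes (log2 fold change -0.07 ± 0.04, adjusted p = 0.284), and 1 S6K1-/- library lay within the WT range. Its exons are shared to 98.8% with another GENCODE gene on the same strand, ENSG00000290315, so that its count may depend on how shared reads were assigned. IMPDH1 was measured at 39.2, 38.9 and 37.8 CPM against 36.5, 42.0 and 36.5 CPM. GMPS, the guanosine monophosphate synthetase, and ADSS2, the first enzyme of the adenine branch, had log2 fold changes of -0.01 and 0.01. Their means were 201 and 200 CPM for GMPS and 99.0 and 99.5 CPM for ADSS2 in WT and S6K1-/- hESCs.

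PRPP synthesis gave the member with the smallest p. PRPS2, 1 of the 2 PRPP synthetases measured, had 61.4, 63.6 and 61.3 CPM in WT and 73.3, 68.8 and 69.0 CPM in S6K1-/- hESCs. All 3 S6K1-/- libraries were above all WT libraries, and the difference was 13.3% (log2 fold change 0.18 ± 0.04, SE, 95% interval 0.09 to 0.27, adjusted p = 0.0118 in edgeR's test), short of the threshold. Without S6K1-/- replicate 1, its highest library, the adjusted p of PRPS2 was 0.0813. PRPS1, the more abundant synthetase, had 253, 256 and 251 CPM against 239, 237 and 256 CPM (log2 fold change -0.06 ± 0.04, adjusted p = 0.434), and its groups overlapped. The summed level of both genes was 316 ± 4.17 CPM in WT and 314 ± 9.76 CPM in S6K1-/- hESCs.

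PRPS2 lies on the plus strand of chromosome X from 12791355 to 12824222 (GRCh38) with 7 exons. The 250 bases before its RefSeq start site, at chrX:12791162-12791411 of GRCh38.p14 on the plus strand, are shown because PRPS2 had the smallest p of the members. Capitals mark the letters TTTNNCGC of an E2F element, which begins at position -12 from the start site.
PRPS2: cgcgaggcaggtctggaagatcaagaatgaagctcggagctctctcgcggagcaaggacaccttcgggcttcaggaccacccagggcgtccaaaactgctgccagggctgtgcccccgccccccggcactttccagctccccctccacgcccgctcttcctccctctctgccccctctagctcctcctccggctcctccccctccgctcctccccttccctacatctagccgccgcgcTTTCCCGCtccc
E2F factors are known for driving genes of DNA replication. The log2 fold changes of E2F1, E2F2 and E2F3 were 0.03, 0.13 and -0.03, and none passed the test.

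None of the 4 pyrimidine synthesis members passed the test. CTPS1, which aminates UTP to CTP, had 84.0, 87.1 and 82.9 CPM in WT and 79.8, 81.2 and 79.1 CPM in S6K1-/- hESCs, and all S6K1-/- libraries were lower. Its paralog CTPS2 had 121, 119 and 122 CPM against 125, 125 and 127 CPM, and all S6K1-/- libraries were higher. The mean differences were -5.44% and 3.59%, with adjusted p-values of 0.218 and 0.432 in edgeR's test. DHODH, the mitochondrial dehydrogenase of the route, had 17.3 ± 0.56 CPM in WT and 17.8 ± 1.32 CPM in S6K1-/- hESCs. UMPS, which makes uridine monophosphate, had 52.5 ± 2.91 and 55.8 ± 1.41 CPM, with overlapping groups for both genes.

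Of the 5 genes of deoxynucleotide supply, TYMS, the thymidylate synthase, had 82.2, 85.7 and 82.4 CPM in WT and 87.1, 91.3 and 92.5 CPM in S6K1-/- hESCs. All S6K1-/- libraries were higher, but the log2 fold change of 0.11 ± 0.04 did not pass the test (adjusted p = 0.0870). TYMS lies on the plus strand of chromosome 18 from 657653 to 673578, and 60.0% of its exon bases are also exon bases of ENOSF1 on the minus strand. ENOSF1 had 87.6, 86.7 and 84.1 CPM in WT and 94.5, 96.3 and 94.2 CPM in S6K1-/- hESCs (log2 fold change 0.14 ± 0.04, adjusted p = 0.0250). The library kit marks the strand, but the strand setting of the counting is not given in the sources used here, so that reads of the 2 genes may not be told apart. The same limit holds for other members that share exon bases with a gene on the opposite strand. Among them are MTHFD2 with SLC4A5 (30.1%), RPE with KANSL1L (26.4%), DCTPP1 with ZNF771 (22.2%) and MAT2A with GGCX (20.0%).

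Both subunits of ribonucleotide reductase, which makes deoxynucleotides from ribonucleotides, were close between the groups. RRM1 had 148, 142 and 142 CPM in WT and 144, 139 and 152 CPM in S6K1-/- hESCs. RRM2, the subunit whose level follows S phase, had 174, 185 and 169 CPM against 180, 179 and 173 CPM. The log2 fold change was 0.01 ± 0.04 for either gene. DUT, which removes deoxyuridine triphosphate, had 115 ± 7.0 CPM in WT and 109 ± 4.97 CPM in S6K1-/- hESCs. DCTPP1, another pyrophosphatase that cleans the deoxynucleotide pool, had 42.9, 46.3 and 41.8 CPM against 46.1, 46.7 and 52.3 CPM, and its groups overlapped by 1 library (log2 fold change 0.15 ± 0.06, adjusted p = 0.121).

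The serine synthesis genes were among the closest. PHGDH, the first enzyme of serine synthesis from a glycolytic intermediate, had 494, 495 and 508 CPM in WT and 505, 495 and 513 CPM in S6K1-/- hESCs (log2 fold change 0.01 ± 0.04). PSPH, the last enzyme, had 44.6 ± 0.80 and 43.9 ± 2.65 CPM. PSAT1, which acts between them and was on a list of other genes, had 341 ± 9.14 and 348 ± 10.7 CPM. All 3 overlapped between the groups.

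The 8 folate one-carbon enzymes held the member with the second smallest p. MTHFD1, the cytosolic enzyme that interconverts folate 1-carbon forms with 3 activities, had 261, 249 and 254 CPM in WT and 231, 227 and 233 CPM in S6K1-/- hESCs. All S6K1-/- libraries were lower (mean difference -9.52%, log2 fold change -0.14 ± 0.04, SE, 95% interval -0.23 to -0.06, adjusted p = 0.0200 in edgeR's test), short of the threshold. The adjusted p of MTHFD1 lay between 0.0107 and 0.117 with each library left out in turn. MTHFD1L, its mitochondrial relative, had 102, 92.7 and 96.0 CPM against 98.0, 94.7 and 102 CPM (0.01 ± 0.05), with overlapping groups.

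MTHFD1 lies on the plus strand of chromosome 14 from 64388031 to 64463457 (GRCh38) with 28 exons. The 250 bases before its RefSeq start site, at chr14:64388103-64388352 of GRCh38.p14 on the plus strand, are shown because MTHFD1 had the smallest p of the lower members, and they begin downstream of the gene's first start in GENCODE. Capitals mark a CCAAT box, which begins at position -216 from the start site, and an E-box CACGTG, which begins at position -15.
MTHFD1: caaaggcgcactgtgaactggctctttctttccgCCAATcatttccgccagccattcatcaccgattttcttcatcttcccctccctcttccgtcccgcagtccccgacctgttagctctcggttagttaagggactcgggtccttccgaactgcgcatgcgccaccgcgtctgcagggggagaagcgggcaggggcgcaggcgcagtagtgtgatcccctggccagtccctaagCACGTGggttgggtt

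SHMT2, which releases a 1-carbon unit from serine in mitochondria, had 307, 309 and 311 CPM in WT and 326, 322 and 331 CPM in S6K1-/- hESCs. All S6K1-/- libraries were higher (mean difference 5.58%, log2 fold change 0.08 ± 0.04, adjusted p = 0.197). MTHFD2, the mitochondrial dehydrogenase that is abundant in proliferating cells, had 230, 215 and 243 CPM against 233, 229 and 253 CPM, and its groups overlapped. SHMT1, the cytosolic serine hydroxymethyltransferase, had 45.1 ± 1.51 and 46.6 ± 1.42 CPM and overlapped as well.

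The folate enzymes with the fewest counts had the largest differences and the largest errors. MTHFD2L had 9.16, 9.15 and 10.3 CPM in WT and 8.05, 8.44 and 8.64 CPM in S6K1-/- hESCs (log2 fold change -0.19 ± 0.09, adjusted p = 0.184). ALDH1L1, the cytosolic formyltetrahydrofolate dehydrogenase, was counted 26, 24 and 22 times in WT and 18, 12 and 17 times in S6K1-/- hESCs (log2 fold change -0.55 ± 0.25, adjusted p = 0.182). All S6K1-/- libraries were lower in both genes, and neither passed the test. ALDH1L2, the mitochondrial counterpart, had 28.9 ± 2.77 and 27.9 ± 0.74 CPM, with overlapping groups.

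In the methionine cycle, MAT2A, which makes the methyl donor S-adenosylmethionine, had 251, 250 and 243 CPM in WT and 250, 255 and 258 CPM in S6K1-/- hESCs. AHCY, which hydrolyses S-adenosylhomocysteine after the methyl group is used, had 299, 308 and 307 CPM against 274, 285 and 284 CPM. All S6K1-/- libraries were lower for AHCY (mean difference -7.81%), with an adjusted p of 0.0569 in edgeR's test (log2 fold change -0.12 ± 0.04).

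The pentose phosphate members included the most abundant transcript. TKT, the transketolase, had 1264, 1244 and 1246 CPM in WT and 1254, 1279 and 1261 CPM in S6K1-/- hESCs (log2 fold change 0.02 ± 0.04). TALDO1, the transaldolase that works beside it, had 181, 190 and 178 CPM against 195, 197 and 201 CPM. All S6K1-/- libraries were higher for TALDO1 (mean difference 7.97%, log2 fold change 0.11 ± 0.04, adjusted p = 0.0825). PGD, the second dehydrogenase of the oxidative branch, had 345 ± 7.18 and 352 ± 1.96 CPM. RPIA, the isomerase that yields ribose 5-phosphate, had 20.8 ± 1.03 and 20.0 ± 2.15 CPM, and RPE, the epimerase, had 58.2 ± 0.77 and 61.4 ± 5.32 CPM. The groups of these 3 genes overlapped.

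**Figure D2:**
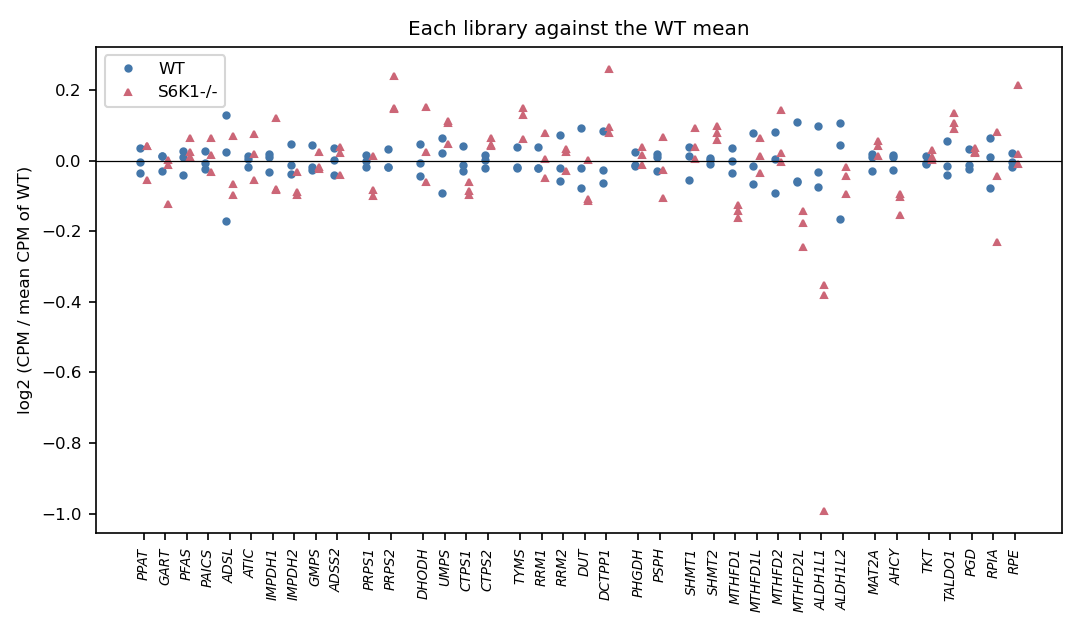
Level of each of the 38 members (x axis, by role) in each of the 6 libraries, as log2 of its CPM over the mean CPM of the 3 WT libraries (y axis), with circles for WT and triangles for S6K1-/- hESCs. The groups do not overlap in 10 members, among them PRPS2 and TYMS above 0 and MTHFD1 and AHCY below 0, and ALDH1L1 has the lowest triangles.

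Summed by role, the purine enzymes reached 1997 to 2050 CPM in WT and 1961 to 2056 CPM in S6K1-/- hESCs, and the folate enzymes 945 to 992 and 958 to 1001 CPM. The groups overlapped in both. The pyrimidine sum was 272 to 278 CPM in WT and 279 CPM in each S6K1-/- library, a mean difference of 1.30%. The pentose phosphate sum was likewise higher in all S6K1-/- libraries (1846 to 1865 against 1876 to 1905 CPM, 1.99%). The methionine cycle sum was lower in all of them (550 to 558 against 524 to 542 CPM, -3.14%). These differences are descriptions of summed levels, with no test.

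Levels between the genes were compared per length, as CPM per kb of the MANE Select transcript. The spread between libraries does not measure biases that differ between genes. The aligner does not cross splice junctions, so genes with many exons for their length may lose more reads. IMPDH2, TYMS and ADSL share 98.8%, 60.0% and 30.6% of their exon bases with another gene. The effect of both on the order was not tested. In WT hESCs TKT was first with 418 ± 3.65 CPM per kb, ahead of PHGDH with 267 ± 4.23 and IMPDH2 with 225 ± 6.89. TALDO1 (153 ± 5.30) and PGD (152 ± 3.17) did not differ beyond their spread, nor did SHMT2 (143 ± 0.93) and AHCY (142 ± 2.27). PRPS1 (122 ± 1.43), PAICS (110 ± 1.93) and ATIC (98.6 ± 1.10) followed in that order without overlap. RRM2, DUT, MTHFD2, TYMS and GART formed a stretch from 54.0 to 51.5 CPM per kb in which each neighbour overlapped the next. At the low end UMPS had 7.89 ± 0.44, and MTHFD2L, ALDH1L2 and DHODH followed with 4.05 ± 0.28, 3.88 ± 0.37 and 3.71 ± 0.12 and overlapped in turn. ADSL (0.91 ± 0.10) and ALDH1L1 (0.33 ± 0.02) were last.

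**Figure D3:**
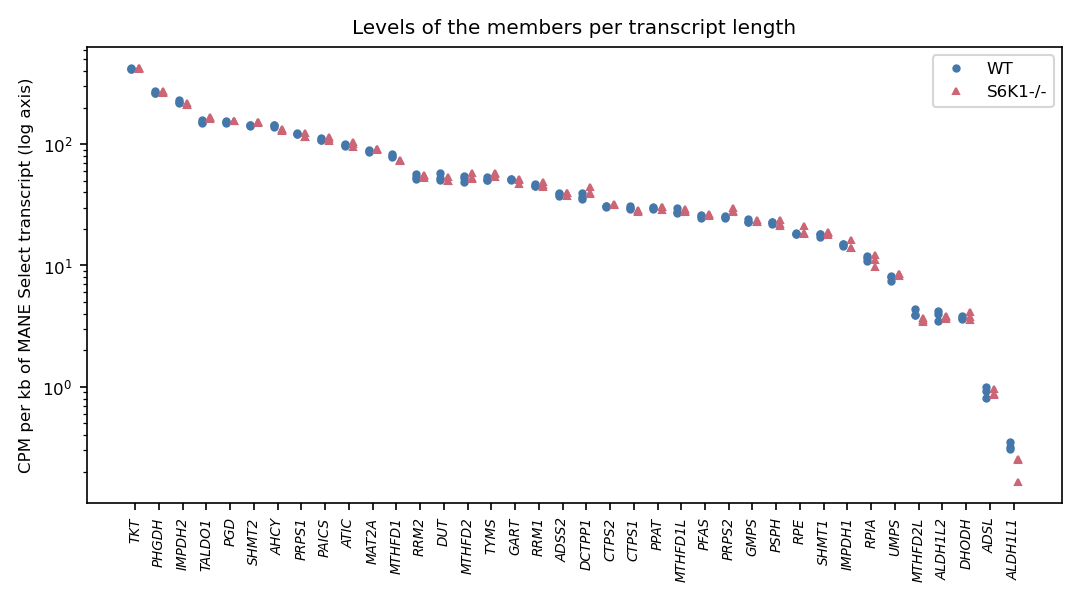
Level of each member in CPM per kb of its MANE Select transcript (y axis, log scale), ordered by the WT mean, with circles for the 3 WT and triangles for the 3 S6K1-/- libraries. The order runs from TKT at 418 to ALDH1L1 at 0.33 CPM per kb in WT, and the libraries of both genotypes lie together at nearly every gene.

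For 7 reactions the members include a pair of related enzymes, and the share of the pair's counts that each took was compared. PRPS2 took 19.7 ± 0.18% of the PRPP synthetase counts in WT and 22.4 ± 1.12% in S6K1-/- hESCs. MTHFD1L took 27.6 ± 0.53% of its pair with MTHFD1 in WT and 29.9 ± 0.46% in S6K1-/- hESCs, so that the mitochondrial member's share was higher. CTPS1 took 41.2 ± 0.93% of its pair with CTPS2 in WT and 39.0 ± 0.49% in S6K1-/- hESCs.

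Among the other pairs, IMPDH1 took 9.45 ± 0.30% and 9.81 ± 0.88% beside IMPDH2, and SHMT1 took 12.7 ± 0.37% and 12.5 ± 0.49% beside SHMT2. MTHFD2L took 3.99 ± 0.14% and 3.40 ± 0.14% beside MTHFD2. ALDH1L1 took 3.36 ± 0.36% and 2.399 ± 0.58% beside ALDH1L2. Of the shares in all 7 pairs, those of IMPDH1 and SHMT1 overlapped between the groups and the others did not. Scaled by transcript length, the PRPS2 share was 17.05% in WT and the CTPS1 share 49.3%, close to an even split. Reads lost at splice junctions may differ between the genes of a pair. These shares were not tested, and how often the shares of other gene pairs separate the groups was not computed.

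**Figure D4:**
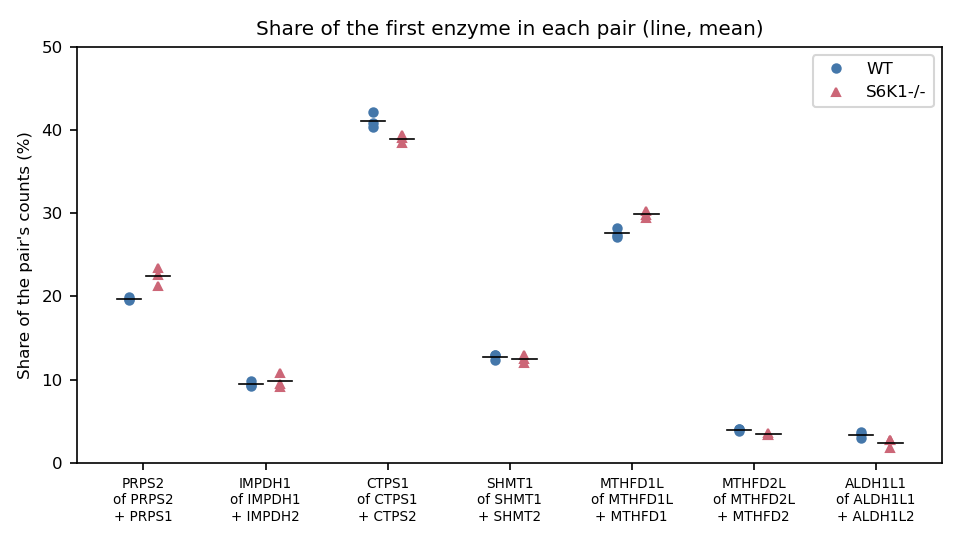
Share of a pair's counts taken by the first enzyme named (y axis, percent) in the 3 WT (circles) and 3 S6K1-/- libraries (triangles), with lines at the means. PRPS2 and MTHFD1L take higher shares in S6K1-/- hESCs (22.4 against 19.7% and 29.9 against 27.6%) and CTPS1 a lower one (39.0 against 41.2%).

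Short sequence motifs were counted in the RefSeq windows from 250 bases before to 50 bases after the start site (GRCh38.p14), on both strands. Of the 38 members, 33 had a window, all but ADSL, IMPDH2, PSPH, SHMT2 and ALDH1L2. The E-box CACGTG was in 6 of these 33 windows (18.2%), those of PPAT, ATIC, DHODH, DCTPP1, MTHFD1 and MTHFD1L, and in 8.84% of all 15108 windows. The CCAAT box (CCAAT) was in 16 of 33 (48.5%) and in 36.6% of all. RRM2 held 3 CCAAT boxes, at positions -123, -93 and -66 from its start site. The E2F element TTTNNCGC was in 5 of 33 (15.2%), those of GART, ADSS2, PRPS2, TYMS and ALDH1L1, and in 9.01% of all. The ATF4 element TGATGNAA was in 1 window (3.03%), that of MTHFD1L, and in 2.396% of all. In the sequences printed above no marked motifs overlap, and the shares are descriptions without a test. ATF4, the stress-responsive activator known for serine and one-carbon genes, had a log2 fold change of 0.00.

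The other genes of these pathways came from 8 lists with 96 genes, of which 80 were tested. At the threshold 2 of them were higher and 1 lower, a share close to the 3.96% of all genes. At an unadjusted p under 0.05 edgeR's test gave 13 lower and 7 higher of the 80, beside 14.5% lower and 11.8% higher of all genes. GDA, the guanine deaminase that converts guanine to xanthine, was counted 364, 326 and 381 times in WT and 1286, 1318 and 1223 times in S6K1-/- hESCs. It rose 3.72-fold (log2 fold change 1.90 ± 0.07, SE, adjusted p = 3.21e-11 in edgeR's test), the groups were far apart, and it passed the threshold in every refit of its own counts, with each library left out included. GDA lies on the plus strand of chromosome 9 from 72114595 to 72257193.

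CDA, the cytidine deaminase of pyrimidine salvage, had 10.3, 10.3 and 10.4 CPM in WT and 15.8, 14.1 and 14.7 CPM in S6K1-/- hESCs. It rose 1.44-fold (log2 fold change 0.53 ± 0.07, adjusted p = 1.55e-04). The adjusted p of CDA was 0.0011 when WT replicate 3 was left out, 0.0014 without the first S6K1-/- library and 0.00109 without the third of them, each just short of the threshold. SAMHD1, which breaks down deoxynucleoside triphosphates, had 61.8, 62.9 and 63.8 CPM in WT and 52.4, 52.7 and 52.7 CPM in S6K1-/- hESCs. Its level fell (log2 fold change -0.26 ± 0.04, adjusted p = 5.49e-04), but its adjusted p was between 0.00122 and 0.00540 with any 1 library left out.

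**Figure D5:**
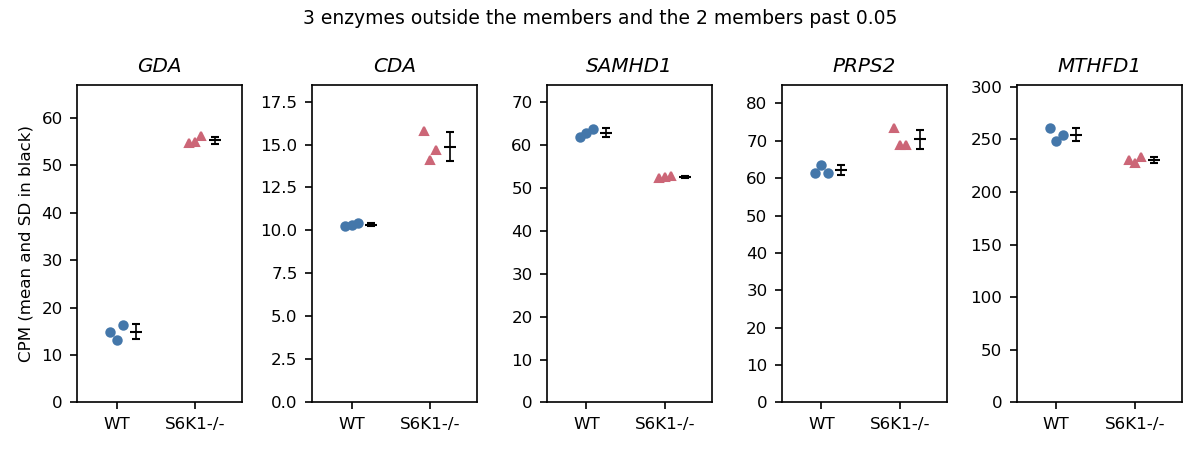
Levels of GDA, CDA and SAMHD1, the genes of the 8 lists of other pathway genes that passed the threshold, and of PRPS2 and MTHFD1, the members with the smallest p, in CPM (y axes from 0) for 3 WT (circles) and 3 S6K1-/- libraries (triangles), with mean and SD in black. GDA stands at 14.9 CPM in WT and 55.3 CPM in S6K1-/- hESCs, while the groups of PRPS2 (62.1 and 70.4 CPM) and MTHFD1 (255 and 230 CPM) lie close together.

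In the remaining 6 of these lists no gene passed the threshold with edgeR's test or with DESeq2's. At an unadjusted p under 0.05 edgeR's test gave 1 lower and 3 higher of 13 nucleotide kinases, 1 lower of 6 other synthesis enzymes, 2 lower of 13 folate cycle and transport genes, 1 lower and 1 higher of 8 glycine and serine genes, 3 lower and 1 higher of 12 methionine genes and none of 5 other pentose phosphate genes, beside 14.5% lower and 11.8% higher of all genes. SLC46A1, the proton-coupled folate transporter, had 16.6, 15.9 and 15.9 CPM in WT and 12.7, 12.4 and 13.3 CPM in S6K1-/- hESCs, with an adjusted p of 0.00368. CMPK1, a pyrimidine nucleoside monophosphate kinase, had 64.4 CPM in WT and 70.5 CPM in S6K1-/- hESCs (adjusted p = 0.101). GLDC, the glycine decarboxylase, had 211 ± 3.62 and 229 ± 5.52 CPM (adjusted p = 0.0598).

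None of the other genes named from these lists passed the threshold. RRM2B, the alternative small subunit of ribonucleotide reductase, had 128 ± 8.51 and 118 ± 6.25 CPM (adjusted p = 0.162), and PRPSAP2, a PRPP synthetase-associated protein, had 36.6 and 34.3 CPM (adjusted p = 0.265). AMT of glycine cleavage had 0.75 and 0.40 CPM (adjusted p = 0.151). BHMT, a betaine-dependent methyltransferase, had 1.08 and 0.53 CPM (adjusted p = 0.0270), and the spermine synthase SMS had 205 and 185 CPM (adjusted p = 0.0326). H6PD, a dehydrogenase of the endoplasmic reticulum, had a log2 fold change of 0.10 (adjusted p = 0.321). CAD, which holds the first 3 activities of pyrimidine synthesis and is a known target of S6K1 at the protein level, had 262, 233 and 247 CPM in WT and 244, 241 and 237 CPM in S6K1-/- hESCs (-0.04 ± 0.04, adjusted p = 0.635), with overlapping groups.

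Demand for deoxynucleotides follows DNA synthesis, and the members were read beside 22 S phase and mitosis genes. None of the 22 passed the threshold with either tool, and 1 was lower and 5 were higher at an unadjusted p under 0.05 in edgeR's test, beside 14.5% lower and 11.8% higher of all genes. The groups did not overlap in 1 lower and 9 higher of them, beside 16.7% and 14.0% of all genes. The summed level of these genes was 4533 to 4671 CPM in WT and 4737 to 4885 CPM in S6K1-/- hESCs, without overlap. CDC6, a replication licensing factor, had 102, 103 and 98.4 CPM in WT and 111, 112 and 115 CPM in S6K1-/- hESCs (adjusted p = 0.0118), and BUB1, a mitotic checkpoint kinase, had 212, 199 and 212 CPM against 182, 177 and 188 CPM (adjusted p = 0.00620). Their part in the values of TYMS, RRM1, RRM2 and DUT was not tested. The summed deoxynucleotide members overlapped between the groups (549 to 582 and 563 to 585 CPM).

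Markers of other cell types moved with the genotype in part. DNMT3B on the pluripotent list fell by 0.35 on the log2 scale, PAX6 rose by 0.76 and DCX fell by 0.54 among 6 tested neuroectoderm markers, and PDGFRB fell by 1.34 among 4 tested fibroblast markers. The adjusted p of PAX6 was 0.00186 without WT replicate 1, 0.00149 without S6K1-/- replicate 2 and 0.00228 without S6K1-/- replicate 3, short of the threshold. That of DCX was 0.0012 to 0.00521 with any library but WT replicate 2 left out. The summed neuroectoderm markers were 475 to 494 CPM in WT and 462 to 481 CPM in S6K1-/- hESCs, of which NES alone made up 442 and 424 CPM on average. At low levels FABP7 had 1.90 and 0.79 CPM (adjusted p = 0.00192) and SOX1 had 0.26 and 0.65 CPM (adjusted p = 0.0174). The fibroblast markers summed to 485 to 508 and 476 to 497 CPM. THY1, which hESCs are known to express, made up nearly all of the fibroblast sum, while DCN was at 0 in every library and COL3A1 and LUM had at most 2 counts. Of the mesoderm and endoderm markers 5 were tested, and their groups did not overlap, with 4 lower and 1 higher. Over all genes 16.7% were lower and 14.0% higher without overlap. FOXA2 had 6.09 CPM in WT and 3.32 CPM in S6K1-/- hESCs (log2 fold change -0.88, adjusted p = 0.00108), just short of the threshold. MIXL1 was the higher one (10.95 and 12.93 CPM, adjusted p = 0.0449), and it made up most of a sum of 18.2 to 22.2 and 17.8 to 18.6 CPM. The amnion and trophoblast markers summed to 4.86 to 6.67 and 3.17 to 3.72 CPM, and only KRT7 (log2 fold change -0.82, adjusted p = 0.00103) and GATA3 were tested. In each of these lists 1 gene was lower at the threshold with DESeq2's test, and with edgeR's without a filter or without WT replicate 3. The part of these markers in the members' values was not tested.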

How the data were processed

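Total RNA of undifferentiated H7 hESCs was sequenced from stranded mRNA libraries (3 WT, 3 S6K1-/-). The labels also give a time of week 5 and call the genotype a knockdown, whereas the methods describe undifferentiated knockout cells. Per the methods and the submitters' processing notes, the authors trimmed paired reads with Trim Galore 0.6.5, aligned them to GRCh38 with Bowtie2 2.4.5, which does not align across splice junctions, and counted them per gene with featureCounts. The counts were deposited by the authors as whole numbers without normalization. The annotation release and strand setting are not given in the sources used here. A table of the authors' own comparison (DESeq2 1.37.4: mean level, log2 fold change, standard error, statistic, p-values and direction) was not used.

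Totals of 21896698 to 24473013 counts were obtained per library. The filter filterByExpr of edgeR 4.0.16 (R 4.3.3) left 19521 of 61155 symbols. TMM scaling was followed by edgeR's quasi-likelihood test of S6K1-/- against WT, without further factors. The Benjamini-Hochberg adjustment covered all genes tested, and the study's threshold of 0.001 was applied. A standard error is the size of the log2 fold change over the root of its F statistic. Symbols were placed with GENCODE 44, and promoter windows came from RefSeq on GRCh38.p14.

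The members and the 15 gene lists were chosen with earlier results of these data known. Named were RPS6KB1, RPS6KB2, all members, the genes of each list past the threshold or, where none passed, the 2 with the smallest p, and pseudogene rows with at least 100 counts. Other names (CAD, PSAT1, ATF4, the E2F genes, POU5F1, NES, FABP7, SOX1, marker genes near 0 and overlapping genes) were added for their role or position. A few listed genes covered by this rule are not reported here. The fits were repeated with the size factors of DESeq2 1.42.0 and with its Wald test, without a filter, with at least 10 counts in all libraries, with a block for the replicate number, with each library left out, at a threshold of 0.05 and with pseudogene counts added. Counts at an unadjusted p were added after seeing the data.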

Additional observations from a re-analysis of the deposited data

How the results depend on the processing

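No alternative moved a member past the threshold of 0.001. Of 456 member values (38 members under 12 alternatives), 431 kept their direction and 25 in 13 members changed sign, all of members that did not pass the test. With DESeq2's size factors and with its Wald test GMPS was at 0.00123 and 0.00118 on the log2 scale, and with pseudogene counts added IMPDH1 was at 0.00132. The other sign changes came with a library left out, where the log2 fold change ran from -0.0064 to 0.043 for PPAT, -0.099 to 0.044 for ADSL, -0.016 to 0.049 for ATIC, -0.081 to 0.031 for IMPDH1, -0.013 to 0.018 for GMPS, -0.0075 to 0.033 for ADSS2, -0.0090 to 0.090 for DHODH, -0.014 to 0.044 for RRM1, -0.011 to 0.049 for RRM2, -0.058 to 0.022 for PSPH, -0.017 to 0.064 for MTHFD1L, -0.13 to 0.012 for ALDH1L2 and -0.13 to 0.021 for RPIA. The adjusted p of PRPS2 lay between 0.0102 and 0.0813 in these fits. Pseudogene rows were small: GMPSP1 had 401 counts over all libraries, MTHFD2P7 114 and IMPDH1P10 113.

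At an adjusted p under 0.05, 1622 genes were lower and 1067 higher, with 1 member in each direction, 6 lower and 3 higher of 80 other pathway genes (beside 8.31% lower and 5.47% higher of all genes), 2 lower in purine salvage, 3 lower of 12 methionine genes, 1 lower folate gene, 1 higher nucleotide kinase, and 1 lower and 2 higher S phase and mitosis genes. At an unadjusted p under 0.05, 4 members were lower and 4 higher. Without a filter 982 genes were lower and 591 higher, and 1 S phase and mitosis gene was lower and 1 higher. With 1 library left out, all genes lower ran from 313 to 445 and higher from 175 to 235, members without overlap from 12 to 18 (31.6 to 47.4% of members, beside 38.4 to 41.6% of all genes), higher other pathway genes from 1 to 2 and higher pyrimidine salvage genes from 0 to 1, and 0 other pathway genes and 0 purine salvage genes were lower in each of these fits. The cause of these changes was not tested, beyond the fewer libraries or other gene set of each fit.

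No label gives same-numbered libraries a shared batch. The deviations of same-numbered libraries from their group means correlate at 0.032, 0.0055 and 0.039, which shows no pairing. These values cannot exclude one, as the noise of low counts enters them. With the number as a block, 0 other pathway genes and 0 purine salvage genes were lower, since SAMHD1 had an adjusted p of 0.00125. DCX also lost its call (0.00192), 1 amnion and trophoblast marker was lower, and no call changed among the members. The low counts of ALDH1L1 (12 to 26 per library) and ADSL (81 to 107) limit the precision of their values.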
